A study of Rattus norvegicus with 18 samples.

Results

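The genes described here are 8 that act on the route from glycerol phosphate to triglyceride in the liver: Gpam, Agpat2, Agpat3, Lpin1, Lpin2, Dgat1, Dgat2 and Mgll. They were taken by name, from the probe sets that the annotation of the array gives to a single gene symbol. All 8 were found, among 14217 genes with such probe sets, through 20 of the 31042 probe sets tested. A gene with several probe sets was read through the one with the highest mean over all arrays, and the others are given beside it. RNA came from primary hepatocytes of Wistar rats, cultured and measured on 18 Affymetrix arrays. After attachment the cells were kept in medium with insulin and hydrocortisone, and received EMD, which activates both PPARα and PPARγ, nuclear receptors that respond to fatty acids, at 30 or 100 µM, or the vehicle, 0.1% DMSO. RNA was taken after 24 or 72 h. The 6 groups held 3 arrays each, and every vehicle group served as control for both doses at its time.

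Triglyceride is built in the liver by adding fatty acids one after another to glycerol-3-phosphate. A first acyltransferase makes lysophosphatidate, a second makes phosphatidate, a phosphatase removes the phosphate to leave diacylglycerol, and a last acyltransferase completes the molecule. Diacylglycerol is also the starting point of the main phospholipids, and lipases run the route in the opposite direction, from triglyceride down to free fatty acids and glycerol. Of the 8 genes, 7 belong to synthesis. Mgll encodes monoacylglycerol lipase, which splits the last fatty acid from glycerol, so it stands on the side of breakdown.

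The start of a gene is where transcription factors, PPARs among them, can act, and the 250 bases before the start are shown for Agpat2 and Agpat3, whose levels parted between the doses, and for Mgll, which had the largest change. They are printed 5′ to 3′ in the direction of the gene, from RefSeq on the rat build GRCr8, where 6 of the 8 genes had an entry (Gpam, Agpat2, Agpat3, Lpin1, Lpin2 and Mgll). The stretch of Agpat2 lies at chr3:29826158-29826407 on the minus strand, that of Agpat3 at chr20:10383931-10384180 on the plus strand, and that of Mgll at chr4:122749186-122749435 on the plus strand. Capitals mark GGGCGG, the GC box, on either strand in Agpat2 and Mgll, and AGGTCA, the hexamer that nuclear receptors recognise, in Agpat3.
Agpat2: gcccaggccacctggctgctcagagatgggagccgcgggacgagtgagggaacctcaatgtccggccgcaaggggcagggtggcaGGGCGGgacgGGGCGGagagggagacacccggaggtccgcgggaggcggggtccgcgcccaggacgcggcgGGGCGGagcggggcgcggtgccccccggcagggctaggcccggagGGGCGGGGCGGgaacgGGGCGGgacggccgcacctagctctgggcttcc
Agpat3: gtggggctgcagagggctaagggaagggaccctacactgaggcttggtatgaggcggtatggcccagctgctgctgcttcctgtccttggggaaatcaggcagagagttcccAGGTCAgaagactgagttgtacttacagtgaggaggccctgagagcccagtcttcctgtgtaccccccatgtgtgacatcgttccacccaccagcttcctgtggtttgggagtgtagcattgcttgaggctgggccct
Mgll: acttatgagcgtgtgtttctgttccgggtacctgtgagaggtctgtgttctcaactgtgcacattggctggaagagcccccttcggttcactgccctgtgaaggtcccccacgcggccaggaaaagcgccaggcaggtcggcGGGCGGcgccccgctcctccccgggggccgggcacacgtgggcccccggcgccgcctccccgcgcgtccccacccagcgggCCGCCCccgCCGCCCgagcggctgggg
The consensus of PPAR and its partner RXR, a direct repeat of AGGTCA with 1 base between the copies, was searched on both strands and was in 0 of the 6 stretches, and in 0.0508% of 33469 promoters of the same length. The single hexamer AGGTCA, which is also a part of that consensus, was in 1 of the 6, Agpat3, where it begins 138 bases before the start, and in 14.1% of all promoters. The GC box had 6 matches in Agpat2, some of them overlapping, and 3 in Mgll, and was found in 2 of the 6 stretches and in 30.5% of all promoters. These matches describe letters within a short window and say nothing of binding.

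Array values are log2 expression estimates made by RMA, a method that puts all arrays on a common scale. Any 2 arrays correlated at 0.961 or above, and the standard error (SE) of a difference between 2 groups had a median of 0.116 over all probe sets, which 3 arrays a group cannot bring lower. The hepatocyte label was borne out by 7 measured markers of hepatocytes, whose means over all arrays ran from 12.16 for Fgb to 14.71 for Alb, while the mean of the marker lists of macrophages, stellate cells with fibroblasts, and endothelial cells lay between 3.54 and 5.28 in every group. The list of cholangiocytes, the cells of the bile ducts, had group means of 5.16 to 5.52, above the array medians, with 8.81 for Epcam and 5.23 for Spp1 but 3.42 for Krt19 and 3.93 for Krt7, and Cd68 of the macrophage list had 7.54. Of 5 measured adipocyte markers, Adipoq, Lep, Cfd and Plin1 had means of 4.28, 3.85, 4.99 and 4.04, under the array medians, which ran from 5.05 to 5.11. Cidec, a lipid droplet gene of adipocytes that fatty hepatocytes also express, had a mean of 10.35. RNA integrity was read from control probes for beta-actin, whose 3′ signal exceeded the 5′ signal by 1.29 to 1.33 in the group means at 24 h and by 0.698 to 0.848 at 72 h. The same difference was 0.141 to 0.289 for GAPDH and 1.4 to 1.67 for hexokinase over all groups. In bulk RNA, fewer cells of a type and less RNA per cell cannot be told apart.

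EMD raised 6 of the 8 genes at either dose and either time. Gpam, Agpat2, Agpat3, Dgat1, Dgat2 and Mgll rose in all 4 comparisons with DMSO. Lpin1 and Lpin2 passed the test in 0 of them, in a fit that did not pair arrays by replicate number. With that number as a block, Lpin1 was called lower at 24 h at both doses (adjusted p = 0.04 and 0.026). Further exceptions for Lpin1 at 24 h and Lpin2 at 72 h under other settings are given below. The test was limma's moderated test with Benjamini-Hochberg adjustment over all 31042 probe sets and a threshold of 0.05, and changes below are log2 differences of group means ± SE with 3 arrays a group. The share of all probe sets called higher was 3.35% for 30 µM and 3.06% for 100 µM at 24 h, then 7.88% and 7.42% at 72 h. In either direction 5.36% and 6.01% were called at 24 h, then 17.1% for both doses at 72 h. The 8 genes had median changes of 0.68 (30 µM) and 0.69 (100 µM) at 24 h, then 1.12 and 1.14 at 72 h, against medians over all probe sets between -0.03 and 0.02. The arrays of EMD and DMSO did not overlap for 8 and 7 of the 8 genes at 24 h and for 6 and 6 at 72 h, where the shares of all probe sets without overlap were 21.4%, 20.8%, 31.9% and 29.2%.

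**Figure D1:**
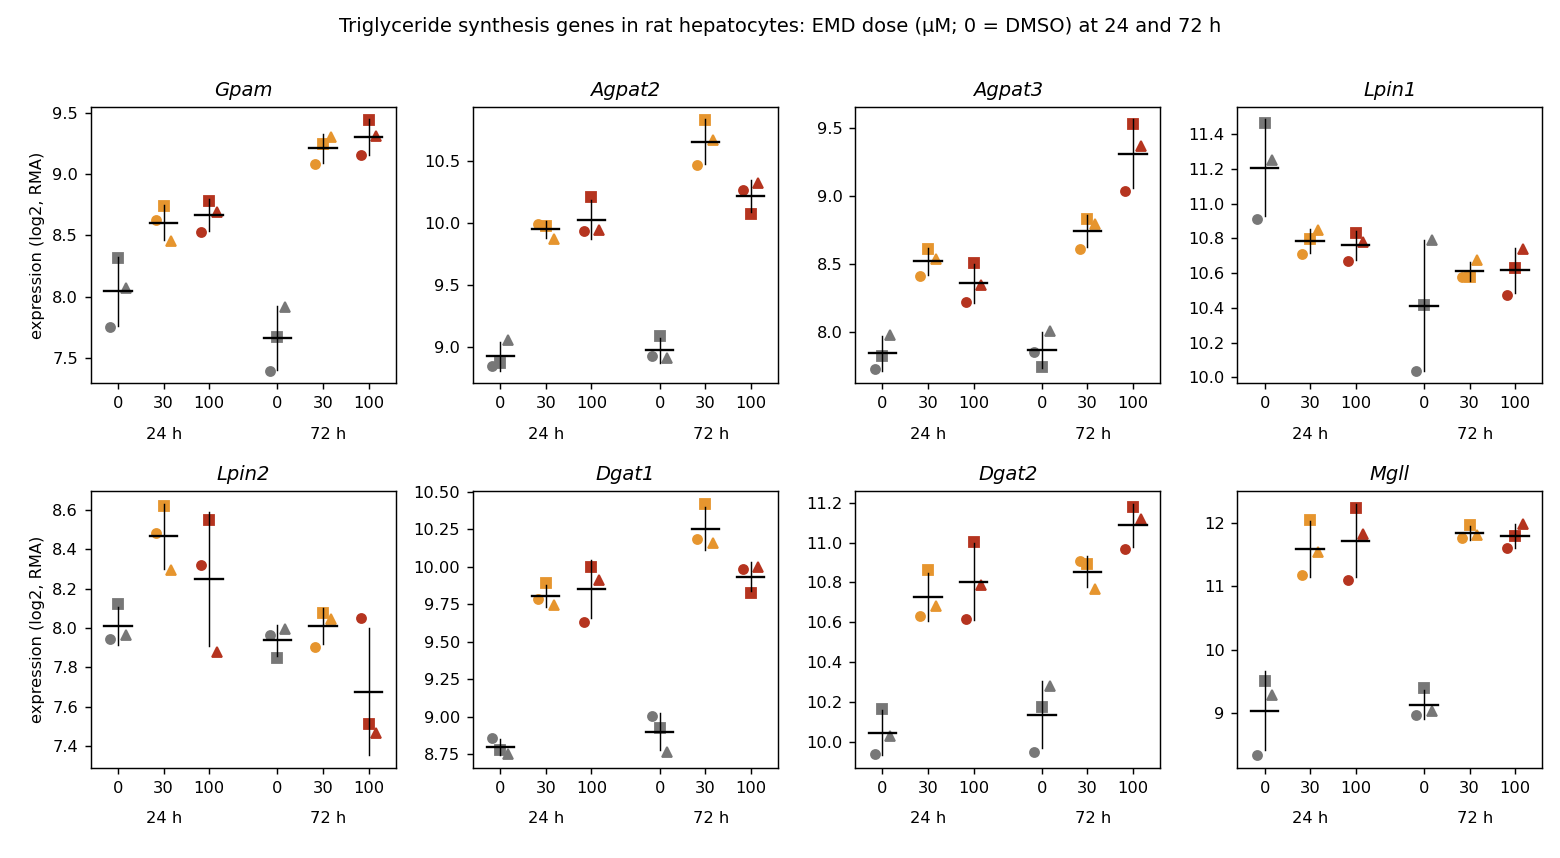
Expression (log2, RMA) of the 8 genes in every array, by EMD dose in µM (0 is DMSO) at 24 and 72 h; circles, squares and triangles are replicates 1, 2 and 3, and bars are the mean ± SD of 3 arrays. In 6 panels all EMD arrays lie above the DMSO arrays of the same time, whereas Lpin1 and Lpin2 show no such step, Lpin1 being lower with EMD at 24 h without passing the test.

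In the plot of expression by array, the genes that rose share a step from vehicle to 30 µM and little further between the doses at 24 h. The size of that step differed between genes, from 0.52 for Agpat3 to 2.68 for Mgll at 100 µM and 24 h. The genes are taken below in the order of the reactions.

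Gpam encodes the mitochondrial glycerol-3-phosphate acyltransferase, which takes the first step, often described as the one that sets the pace of the route. At 24 h its values (probe set 1382986_at) were 7.75, 8.32 and 8.07 in DMSO, 8.62, 8.74 and 8.46 at 30 µM, and 8.53, 8.78 and 8.69 at 100 µM. At 72 h they were 7.40, 7.68 and 7.92 in DMSO, 9.08, 9.25 and 9.30 at 30 µM, and 9.16, 9.44 and 9.31 at 100 µM. Every EMD array was above every DMSO array of its time, narrowly at 24 h and by a wide gap at 72 h.

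Gpam rose by 0.56 ± 0.15 at 30 µM and 0.62 ± 0.15 at 100 µM after 24 h (adjusted p = 0.031 and 0.015), and by 1.55 ± 0.15 and 1.64 ± 0.15 after 72 h (adjusted p = 1.1e-06 and 7.2e-07), or 2.92-fold and 3.11-fold. The response at 72 h exceeded that at 24 h by 0.99 ± 0.21 at 30 µM and 1.02 ± 0.21 at 100 µM in the interaction test (adjusted p = 0.03 and 0.032), and it was the only gene of the 8 called in both interactions. Vehicle cultures held 0.38 ± 0.15 less Gpam signal at 72 than at 24 h, a difference that missed the threshold (adjusted p = 0.071). A second probe set of Gpam gave 0.42, 0.54, 1.52 and 1.41 for the 4 comparisons in the same order, with 0.42 not called (adjusted p = 0.097), and a fall of the vehicle cultures over time of -0.59 ± 0.14 (adjusted p = 0.0062).

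The calls of Gpam at 24 h lay close to the threshold and were often lost when 1 array was left out. At 30 µM the call was lost without replicate 1 or 3 of DMSO or replicate 1 or 2 of EMD, with adjusted p from 0.074 to 0.15, and at 100 µM without replicate 1 of DMSO or replicate 2 or 3 of EMD, with adjusted p of 0.081, 0.076 and 0.055. The change itself stayed between 0.41 and 0.69 at 30 µM and between 0.47 and 0.76 at 100 µM when any 1 of the 6 arrays was left out. The 72 h calls held in each such fit.

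Agpat2 and Agpat3 encode acyltransferases of the second step, from lysophosphatidate to phosphatidate; loss of AGPAT2 in people causes a congenital lack of fat tissue. Agpat2 (probe set 1374570_at) at 24 h stood at 8.84, 8.87 and 9.06 in DMSO, 9.99, 9.98 and 9.87 at 30 µM, and 9.93, 10.21 and 9.94 at 100 µM. At 72 h the values were 8.92, 9.09 and 8.91 in DMSO, 10.47, 10.83 and 10.67 at 30 µM, and 10.27, 10.07 and 10.32 at 100 µM. No EMD array came near the vehicle range at either time, and at 72 h the 30 µM arrays all lay above the 100 µM arrays.

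Agpat2, which has 1 probe set, rose by 1.02 ± 0.11 and 1.10 ± 0.11 at 24 h (adjusted p = 8.8e-06 and 3.6e-06) and by 1.68 ± 0.11 and 1.25 ± 0.11 at 72 h (adjusted p = 1.2e-08 and 5.9e-07), for 30 and 100 µM. The vehicle level differed between the times by 0.05 ± 0.11, with an interval of the difference from -0.18 to 0.28 (95%). The larger response to 30 µM at 72 h than at 24 h, 0.66 ± 0.15, missed the threshold (adjusted p = 0.053).

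Agpat3 (probe set 1382041_at) at 24 h stood at 7.73, 7.82 and 7.98 in DMSO, 8.41, 8.61 and 8.53 at 30 µM, and 8.22, 8.51 and 8.34 at 100 µM. At 72 h the values were 7.85, 7.74 and 8.0 in DMSO, 8.61, 8.83 and 8.80 at 30 µM, and 9.03, 9.53 and 9.37 at 100 µM. The doses overlapped at 24 h, and at 72 h they formed 3 separate steps, vehicle, 30 µM and 100 µM.

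Through this probe set Agpat3 rose by 0.68 ± 0.12 and 0.52 ± 0.12 at 24 h (adjusted p = 0.0022 and 0.016) and by 0.88 ± 0.12 and 1.44 ± 0.12 at 72 h (adjusted p = 7.1e-05 and 4.4e-07). The response to 100 µM was larger at 72 h than at 24 h by 0.93 ± 0.17 (adjusted p = 0.021), while that to 30 µM differed by 0.20 ± 0.17 (adjusted p = 0.69). The larger response to 100 µM was not seen through the other probe sets that rose with EMD, where the interaction was 0.09 ± 0.22 for 1372276_at and 0.42 ± 0.15 for 1382227_at (adjusted p = 0.93 and 0.25). The call at 100 µM and 24 h was lost without replicate 1 or 2 of DMSO or replicate 2 or 3 of EMD, with adjusted p from 0.05, just above the threshold, to 0.094.

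Agpat3 is read by 6 probe sets, which did not tell the same story. The probe sets 1372276_at and 1382227_at, with means of 7.73 and 7.12 over all arrays, rose with 30 µM at both times, by 0.67 and 0.43 at 24 h and by 0.69 and 0.81 at 72 h. With 100 µM they gave 0.34 and 0.35 at 24 h (adjusted p = 0.29 and 0.058) and 0.43 and 0.77 at 72 h (adjusted p = 0.075 and 5.5e-05). In DMSO, 1372276_at was higher at 72 than at 24 h, by 0.56 ± 0.16 (adjusted p = 0.019). For the same comparison the main probe set had 0.02 ± 0.12 and 1382227_at had -0.23 ± 0.10, neither called. The remaining 3, 1397491_at, 1396569_at and 1380480_at, had changes between -0.16 and 0.06 in all 4 comparisons and none was called. Their means were 6.87, 4.748 and 3.35, the first above and the last 2 under the array medians.

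**Figure D2:**
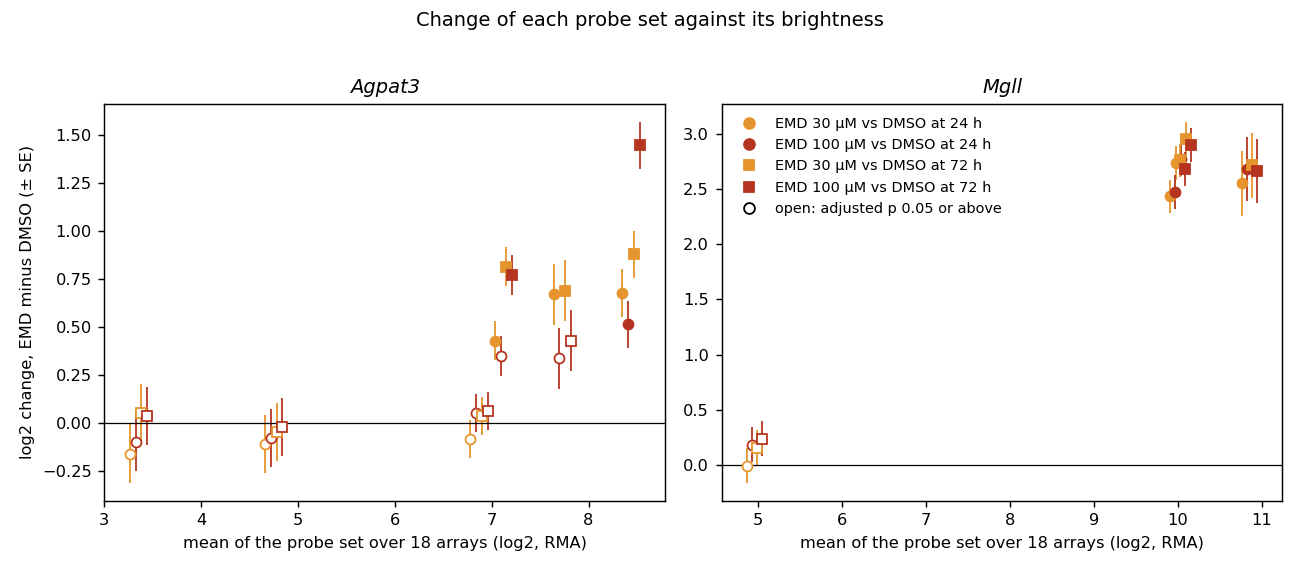
Log2 change with EMD (± SE) of each probe set of Agpat3 (6 probe sets) and Mgll (4 probe sets) against its mean over 18 arrays; circles are 24 h and squares 72 h, orange 30 µM and red 100 µM, and open symbols did not pass the test. For Mgll 3 bright probe sets rose by 2.43 to 2.95 and a dim one did not. For Agpat3 the rise at 100 µM and 72 h was 1.44 on the brightest probe set and 0.77 on 1382227_at, and the others did not pass.

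The plot of changes by probe set shows that the dose step of Agpat3 at 72 h was seen by 1 probe set of 6. Which transcripts each probe set reads was not examined.

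Lpin1 and Lpin2 encode lipins, the phosphatidate phosphatases of the third step; lipin 1 is also known in mouse liver as a partner of PPARα in the control of genes. Lpin1 (probe set 1377599_at) at 24 h stood at 10.91, 11.46 and 11.25 in DMSO, 10.71, 10.80 and 10.85 at 30 µM, and 10.67, 10.83 and 10.78 at 100 µM. At 72 h the values were 10.04, 10.42 and 10.79 in DMSO, 10.58, 10.58 and 10.68 at 30 µM, and 10.48, 10.63 and 10.74 at 100 µM. All EMD arrays were below the vehicle arrays at 24 h, and at 72 h they lay within the vehicle range, which had the widest spread of the 6 groups (SD 0.376, against 0.0568 to 0.278 in the others).

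The differences of Lpin1 from DMSO were -0.42 ± 0.15 and -0.45 ± 0.15 at 24 h (adjusted p = 0.15 and 0.11) and 0.20 ± 0.15 and 0.20 ± 0.15 at 72 h (adjusted p = 0.47 and 0.44). A fit with the replicate number as a block called Lpin1 lower at 24 h at both doses (adjusted p = 0.04 and 0.026, over all alternatives 0.04 to 0.42 and 0.026 to 0.37). Without replicate 1 of DMSO the difference at 100 µM and 24 h was -0.60 and passed the test (adjusted p = 0.037). The second probe set had -0.34 and -0.43 at 24 h and 0.23 and 0.23 at 72 h, with none called. The vehicle level of Lpin1 fell by 0.79 ± 0.15 from 24 to 72 h in DMSO (adjusted p = 0.0018). Lpin1 was the only one of the 8 genes called in that comparison through its main probe set, and 10.7% of all probe sets were called lower there. The second probe set gave -0.31 ± 0.14 for the same comparison (adjusted p = 0.11).

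Lpin2 (probe set 1383665_at) at 24 h stood at 7.94, 8.12 and 7.97 in DMSO, 8.48, 8.62 and 8.29 at 30 µM, and 8.32, 8.55 and 7.88 at 100 µM. At 72 h it stood at 7.97, 7.85 and 8.0 in DMSO, 7.91, 8.08 and 8.04 at 30 µM, and 8.05, 7.51 and 7.47 at 100 µM. The 30 µM arrays were above the vehicle at 24 h, and in both 100 µM groups 1 array stood apart from the others, low at 24 h and high at 72 h.

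The differences of Lpin2 were 0.45 ± 0.16 and 0.24 ± 0.16 at 24 h and 0.07 ± 0.16 and -0.26 ± 0.16 at 72 h, with adjusted p of 0.13, 0.53, 0.84 and 0.32. Their intervals (95%) ran from 0.12 to 0.79 and from -0.10 to 0.57 at 24 h, and from -0.27 to 0.41 and from -0.60 to 0.08 at 72 h. Without replicate 1 of the 100 µM arrays, the difference at 72 h was -0.45 and passed the test (adjusted p = 0.046, with a range of 0.046 to 0.74 over its alternatives). A second, dim probe set of Lpin2, with a mean of 4.79, was not called.

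Dgat1 and Dgat2 encode the acyltransferases that complete triglyceride from diacylglycerol, unrelated proteins that share the reaction; DGAT2 is generally tied to newly made fatty acids and DGAT1 to fatty acids taken up or recycled. Dgat1 (probe set 1367915_at) at 24 h stood at 8.86, 8.78 and 8.76 in DMSO, 9.78, 9.89 and 9.75 at 30 µM, and 9.63, 10.00 and 9.91 at 100 µM. At 72 h it stood at 9.01, 8.92 and 8.77 in DMSO, 10.18, 10.42 and 10.16 at 30 µM, and 9.98, 9.82 and 10.00 at 100 µM. The vehicle arrays lay close together at both times and all EMD arrays stood well above them.

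Dgat1 rose by 1.01 ± 0.10 and 1.05 ± 0.10 at 24 h (adjusted p = 6.6e-06 and 4e-06) and by 1.35 ± 0.10 and 1.03 ± 0.10 at 72 h (adjusted p = 1.1e-07 and 2.8e-06), which is 2.01-fold to 2.55-fold. It has 1 probe set, and each of these calls held when any 1 array was left out.

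Dgat2 (probe set 1371615_at) at 24 h stood at 9.94, 10.16 and 10.03 in DMSO, 10.63, 10.86 and 10.68 at 30 µM, and 10.62, 11.00 and 10.79 at 100 µM. At 72 h it stood at 9.95, 10.18 and 10.28 in DMSO, 10.91, 10.89 and 10.77 at 30 µM, and 10.97, 11.18 and 11.12 at 100 µM. The groups again did not overlap with the vehicle, and at 72 h the 100 µM arrays all lay above the 30 µM arrays.

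Dgat2 rose by 0.68 ± 0.11 and 0.76 ± 0.11 at 24 h (adjusted p = 0.00092 and 0.00032) and by 0.72 ± 0.11 and 0.95 ± 0.11 at 72 h (adjusted p = 2e-04 and 1.4e-05), or 1.60-fold to 1.94-fold. Its second probe set gave 0.72, 0.87, 0.75 and 1.10, all called. For both Dgat1 and Dgat2 the vehicle level differed little between the times, by 0.10 ± 0.10 and 0.09 ± 0.11 (adjusted p = 0.53 and 0.61).

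Mgll had the largest change of the 8 genes in each comparison with DMSO. At 24 h it (probe set 1370831_at) stood at 8.33, 9.50 and 9.28 in DMSO, 11.17, 12.04 and 11.54 at 30 µM, and 11.09, 12.24 and 11.82 at 100 µM. At 72 h it stood at 8.96, 9.39 and 9.04 in DMSO, 11.75, 11.97 and 11.81 at 30 µM, and 11.60, 11.79 and 11.98 at 100 µM. Replicate 1 was the lowest of its group in every group at both times, and the gap between EMD and vehicle was wider than the spread within a group.

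Mgll rose by 2.55 ± 0.29 and 2.68 ± 0.29 at 24 h (adjusted p = 2.1e-05 and 1.3e-05) and by 2.71 ± 0.29 and 2.66 ± 0.29 at 72 h (adjusted p = 4.6e-06 and 7.1e-06), which is 5.85-fold to 6.56-fold. Of its 3 other probe sets, 1375247_at gave 2.73 to 2.95 and 1388644_at gave 2.43 to 2.76, all called. The third, 1375355_at, had a mean of 4.96, under the array medians, and changes from -0.0028 to 0.24, with none called. No difference of this response between doses or times passed the test, and the interaction at 30 µM was 0.16 ± 0.41, with an interval from -0.71 to 1.04 (95%).

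**Figure D3:**
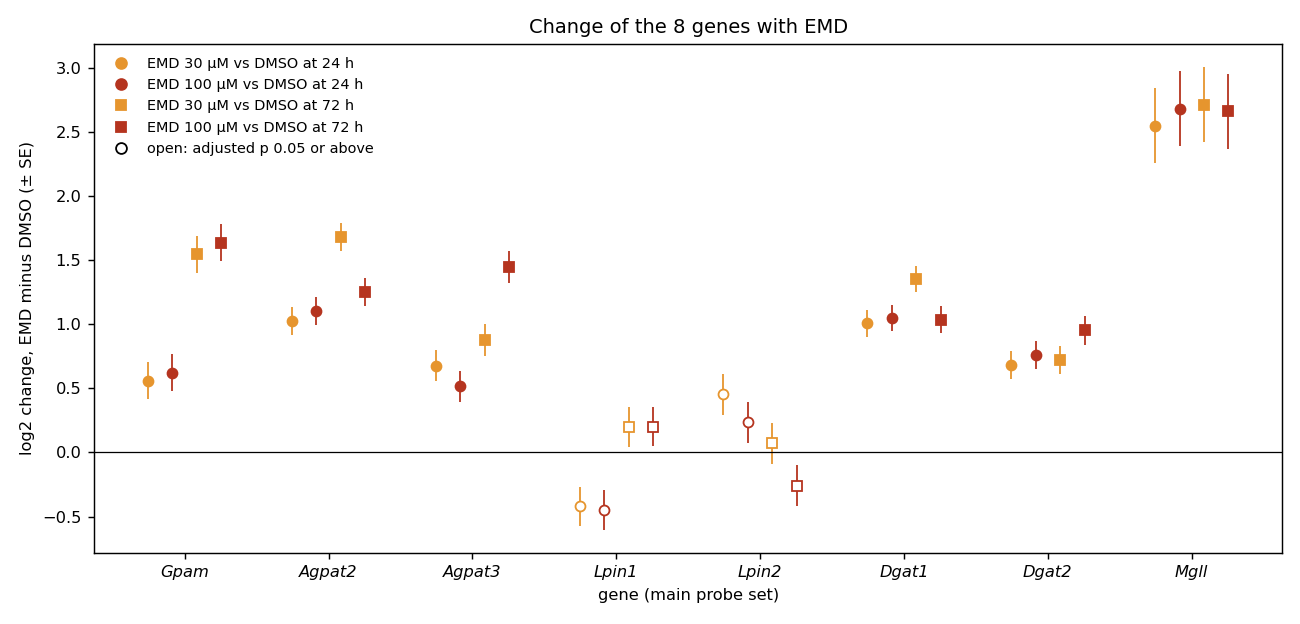
Log2 change with EMD (± SE, 3 arrays a group) of the main probe set of each gene; circles are 24 h, squares 72 h, orange 30 µM and red 100 µM, and open symbols did not pass the adjusted threshold of 0.05. Gpam steps up from 0.56 and 0.62 at 24 h to 1.55 and 1.64 at 72 h. The doses part for Agpat2 and Agpat3 at 72 h in opposite directions. Lpin1 and Lpin2 have open symbols alone, from -0.45 for Lpin1 at 100 µM to 0.45 for Lpin2 at 30 µM, both at 24 h.

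Whether more EMD gave more response was asked by comparing the doses directly. At 24 h limma called 0 of the 8 genes and 0% of all 31042 probe sets. An unadjusted p under 0.05 was found for 1421, which is below the share of 0.05 expected with no difference at all. None of them was the main probe set of a member, and the lowest p of a member was 0.19. With arrays weighted by quality 9 probe sets were called, again no member. The differences of the 8 genes lay between -0.22 for Lpin2 and 0.13 for Mgll.

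At 72 h the doses parted for 2 of the 8 genes, where 3.10% of all probe sets were called in either direction. That share rests on 963 probe sets, and leaving out 1 array gave between 141, without replicate 2 of 100 µM, and 2541, without replicate 1 of 100 µM. Agpat2 was lower at 100 µM than at 30 µM, by -0.43 ± 0.11 (adjusted p = 0.039), and Agpat3 was higher, by 0.57 ± 0.12 (adjusted p = 0.02), without overlap of the arrays for either. Dgat1 and Dgat2 also had no overlap, with differences of -0.32 ± 0.10 and 0.23 ± 0.11, and missed the threshold (adjusted p = 0.12 and 0.33). So 4 of the 8 genes had no overlap between the doses, against 18.2% of all probe sets, 2 of them with the higher level at each dose.

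Neither dose call was firm. That of Agpat2 was lost without replicate 2 or 3 of either dose (adjusted p from 0.09 to 0.22), and that of Agpat3 without any 1 of 5 arrays, all but replicate 1 of 100 µM (adjusted p from 0.056 to 0.14). As given above, the other probe sets of Agpat3 showed no rise between the doses, with -0.26 ± 0.16 for 1372276_at and -0.04 ± 0.10 for 1382227_at.

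Beside these 72 h results, hepatocyte markers moved as well: 4 of 7 were lower with EMD at 30 µM and 5 of 7 at 100 µM, against 1 of 7 at each dose at 24 h. Of all probe sets 17.1% were called in either direction at each dose at 72 h, against 5.36% and 6.01% at 24 h. The mean level of the 7 hepatocyte markers ran from 13.64 to 13.73 in DMSO at 72 h, from 13.10 to 13.25 at 30 µM and from 12.99 to 13.22 at 100 µM. Of the adipocyte markers 1 of 5 was higher at 30 µM and 0 of 5 at 100 µM, with mean levels of 5.36 to 5.45 in DMSO and 5.46 to 5.77 over both doses. At 72 h the 3′ to 5′ difference of beta-actin was 0.698 in DMSO and 0.848 and 0.847 with 30 and 100 µM, that of GAPDH 0.168, 0.171 and 0.141, and that of hexokinase 1.57, 1.5 and 1.67, so the controls did not shift alike. Their part in the changes of the 8 genes was not tested.

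The responses at the 2 times differed for 1 of the 8 genes at 30 µM, Gpam, and for 2 at 100 µM, Gpam and Agpat3, all larger at 72 h. The shares of all probe sets called higher in these interactions were 0.412% and 0.245%. In either direction 292 and 215 were called, and leaving out 1 array gave between 123, without replicate 2 of DMSO or of EMD at 72 h, and 475, without replicate 3 of DMSO at 72 h, for 30 µM, and between 57, without replicate 2 of DMSO at 72 h, and 800, without replicate 1 of EMD at 72 h, for 100 µM. The calls of the members lay close to the threshold and were often lost when 1 array was left out. For Gpam at 30 µM the call was lost without any 1 of 8 of the 12 arrays (adjusted p from 0.062 to 0.096) and held without replicate 1 of DMSO or replicate 2 of EMD at 24 h, or replicate 3 of DMSO or replicate 1 of EMD at 72 h.

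For Gpam at 100 µM the call of the interaction was lost without any 1 of 8 of the 12 arrays (adjusted p from 0.052 to 0.091), holding without replicate 1 of DMSO at 24 h, replicate 1 or 3 of DMSO at 72 h or replicate 1 of EMD at 72 h. For Agpat3 at 100 µM it was lost without any 1 of 6, namely replicate 1 or 3 of EMD and replicate 3 of DMSO at 24 h, and replicate 2 of DMSO and replicate 2 or 3 of EMD at 72 h (adjusted p from 0.051 to 0.072). The size moved little, from 0.85 to 1.13, from 0.88 to 1.16 and from 0.82 to 1.07 for the 3 calls in that order. The remaining genes had interactions from -0.50 for Lpin2 at 100 µM to 0.66 for Agpat2 at 30 µM. Those of Lpin1 were 0.62 ± 0.22 at 30 µM and 0.65 ± 0.22 at 100 µM (adjusted p = 0.23 for both). Its second probe set gave 0.57 and 0.65, not called. Over all alternatives the adjusted p ran from 0.047, without replicate 3 of DMSO at 72 h, to 0.4 at 30 µM. At 100 µM it ran from 0.042, with array weights, to 0.44.

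The other enzymes of the route place these changes. A list of 48 genes was set around the 8, of which 46 were measured (all but Gpd1l and Gpat3). Of the 46, 15 rose and 1 fell at 30 µM and 24 h, 17 rose and 2 fell at 100 µM and 24 h, 21 rose and 4 fell at 30 µM and 72 h, and 15 rose and 4 fell at 100 µM and 72 h. Their median changes were 0.12, 0.12, 0.16 and 0.11.

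At the acylation steps the members rose, and none of the isoenzymes measured passed the test as higher. Of 6 other acyltransferases of the first and second step, 0 rose in any of the 4 comparisons. Gpat4, the main glycerol-3-phosphate acyltransferase of the endoplasmic reticulum, had differences from -0.04 to -0.01, and Agpat1, which shares its reaction with Agpat2, from 0.03 to 0.07, with intervals for Agpat1 within -0.24 and 0.33 (95%). Lclat1, an acyltransferase known for remodelling cardiolipin, fell in all 4, by 0.49, 0.80, 0.91 and 0.99. Mogat1 and Mogat2, which make diacylglycerol from monoacylglycerol, were called in none, with differences between -0.21 and 0.06. Some of these isoenzymes were dim. Group means ran from 3.08 to 3.305 for Gpat2, 3.91 to 4.33 for Agpat4, 3.45 to 3.71 for Mogat1 and 4.64 to 4.87 for Mogat2. All of these lie under the array medians, where a change could be missed. Differences between a member and its isoenzymes were not tested as such.

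At the phosphatase step no gene measured passed as higher. Beside Lpin1 and Lpin2, Lpin3 fell by 0.37 at 100 µM and 24 h and by 0.50 at 30 µM and 72 h (adjusted p = 0.049 and 0.0028), and Plpp2, a lipid phosphate phosphatase of the cell surface, fell by 0.43 and 0.44 at 72 h (adjusted p = 0.0069 and 0.006). Plpp1 and Plpp3 passed in no comparison.

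**Figure D4:**
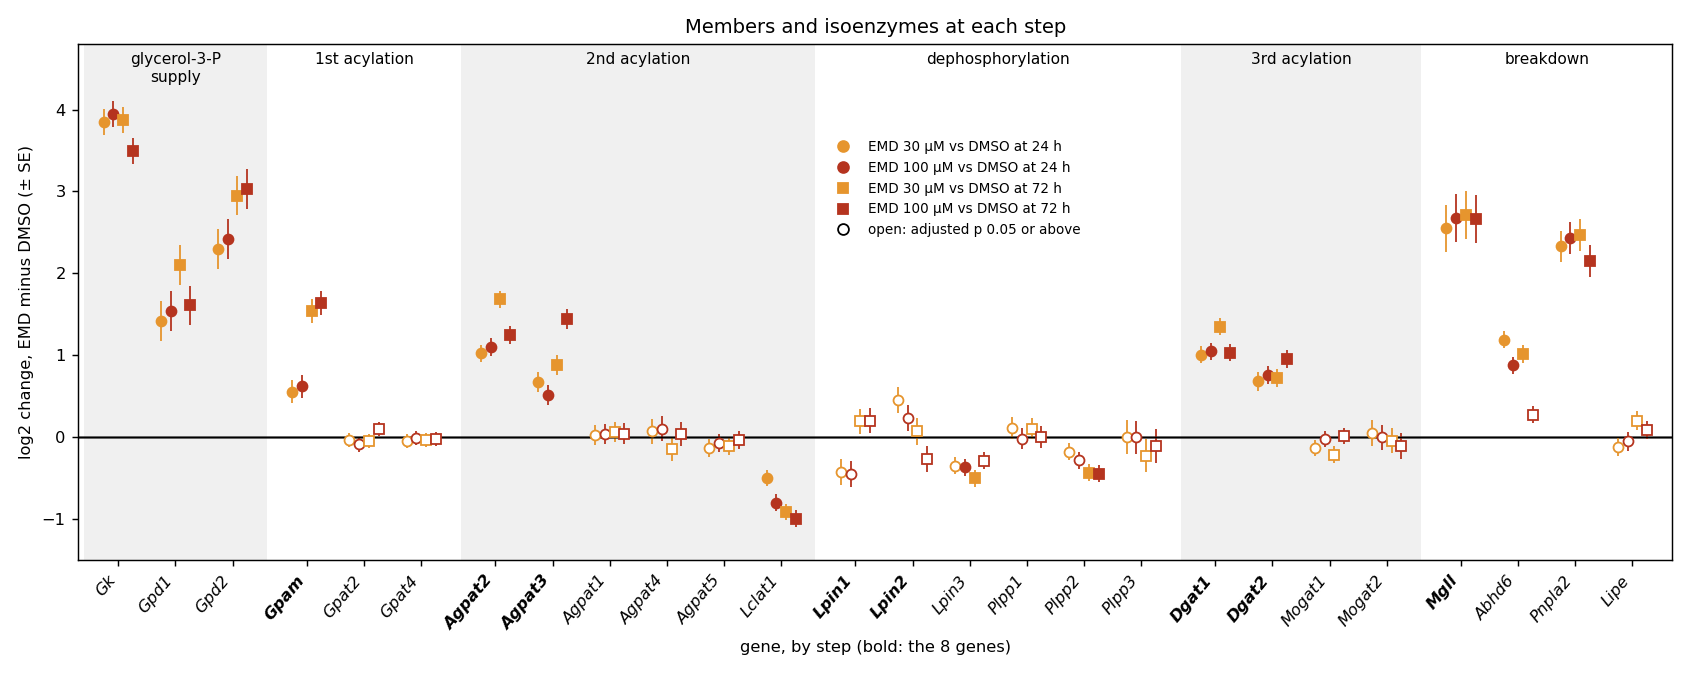
Log2 change with EMD (± SE) of the 8 genes (bold) and other enzymes by step of the route; circles are 24 h, squares 72 h, orange 30 µM and red 100 µM, and open symbols did not pass the test. Filled symbols above 0 are found for Gk, Gpd1 and Gpd2, for Gpam, Agpat2, Agpat3, Dgat1 and Dgat2, and for lipases. Gpd2 is drawn under glycerol-3-phosphate supply, although its enzyme oxidises glycerol-3-phosphate. Lclat1, Lpin3 and Plpp2 have filled symbols below 0.

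In the plot by step of the route the largest rises were before and after the acylations. All 3 measured genes around glycerol-3-phosphate rose in all 4 comparisons, namely Gk and Gpd1, which can supply it, and Gpd2, which oxidises it. Gk, glycerol kinase, rose by 3.85 ± 0.16, 3.95 ± 0.16, 3.87 ± 0.16 and 3.50 ± 0.16, Gpd2, the mitochondrial glycerol-3-phosphate dehydrogenase, by 2.30 to 3.03, and Gpd1, its cytosolic counterpart, by 1.42 to 2.10.

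On the side of breakdown Mgll was joined by Pnpla2, adipose triglyceride lipase, which takes the first fatty acid from triglyceride and rose by 2.15 to 2.46. G0s2, known as an inhibitor of that lipase, rose by 1.64 to 2.25 in the same comparisons. Ces1d, a carboxylesterase of the hepatocyte, rose by 1.90, 1.33 and 2.18 in the first 3 and had 1.02 ± 0.35 at 100 µM and 72 h (adjusted p = 0.059). Abhd6, another hydrolase of monoacylglycerol, rose by 1.19, 0.88 and 1.02 in the first 3 comparisons and had 0.28 at 100 µM and 72 h (adjusted p = 0.091). It was lower at 100 µM than at 30 µM at 72 h, by -0.74 ± 0.11 (adjusted p = 0.0023). In that comparison 6 of the 46 genes fell and 0 rose, and 3.10% of all probe sets were called in either direction. The number called over all probe sets ran from 141 to 2541 when 1 array was left out.

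For the fate of the lipid made, Fitm2, which partitions triglyceride into droplets, rose by 1.49 to 2.14, Plin5, a droplet coat protein of tissues that burn fat, by 1.15 to 1.88, Bscl2, which encodes the droplet assembly protein seipin, by 0.68 to 1.11, and Mttp, which loads triglyceride onto lipoproteins for export, by 1.37 to 1.82. Of the branch from diacylglycerol to phospholipids, Chkb, a choline kinase, rose by 1.35 to 1.85 and Chpt1, which joins choline phosphate to diacylglycerol, by 0.62 to 1.05. Pemt and Cds1, both of phospholipid synthesis, passed in 1 of the 4 comparisons, 30 µM at 72 h, where they rose by 1.2 ± 0.22 and 0.89 ± 0.16, and were lower at 100 µM than at 30 µM at that time (adjusted p = 0.016 and 0.013).

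Among themselves the 6 genes that rose followed each other across the 18 arrays, which share their groups, so that the correlations describe mostly the step from DMSO to EMD. Agpat2 and Dgat1 had a Pearson r of 0.982, Dgat2 and Mgll 0.951, and Gpam and Agpat3 0.91. Over all pairs of the 6 the values ran from 0.788 to 0.982. After the group means were taken out they ran from -0.122 for Gpam and Dgat1 to 0.76 for Gpam and Dgat2, with 0.573, 0.756 and 0.595 for the pairs named first and 0.0371 for Agpat3 and Dgat1, so that not all of them moved together within groups. Gpam and Lpin1, unrelated over all arrays with 0.0119, had 0.848 within groups. Arrays of a group differ in replicate number, and the labels do not say what that number marks. Deviations of arrays with the same number were mostly alike, as given below. The part of the replicate number in these values was not tested.

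Over 14209 other genes and 18 arrays, the profile of Mgll was most like that of Pnpla2 (r = 0.985), followed by Cpt2 of mitochondrial fatty acid import (0.983) and Pex11a of peroxisomes (0.98). Dgat1 was most like Vwa8 (0.983), Hadha (0.982) and Mpc2 (0.981), Dgat2 like Pxmp4 (0.978), Agpat2 like Sephs1 (0.977), Gpam like Clpx (0.957) and Agpat3 like Rchy1 (0.942). Lpin1 and Lpin2 had lower best values, 0.877 with Nags and 0.848 with Zfp513. The mean of the 8 centred profiles was most like Cpt2 (0.979).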

How the data were processed

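RNA of primary rat hepatocytes was hybridised to 18 Affymetrix arrays. The authors deposited log2 values computed by RMA in Affymetrix Expression Console (version not given in the sources used here). RMA equalises the arrays, which removes any shift that most genes share and compresses low values, and it gives no detection call. Of 31099 probe sets, 57 controls were left out. Platform annotation gave 20826 of the rest 1 symbol, 436 several and 9780 none.

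The values were fitted as deposited with limma 3.58.1 in R 4.3.3, with 6 groups in 1 fit (lmFit, eBayes) and 9 contrasts: EMD against DMSO, dose against dose, vehicle over time, and interactions of dose with time. Tests were two-sided and adjusted by Benjamini-Hochberg over 31042 probe sets. The fit was tested on simulated data for 100 µM against DMSO at 72 h. It recovered 40% of log2 changes of 0.5, 90% of those of 1 and 100% of those of 1.5 and 2, with 11 false calls. Only 50 probe sets were changed at each size, whereas 5308 were called in the data. The Benjamini-Hochberg cutoff depends on how many probe sets change, so these shares do not measure the power in the data. The noise was drawn independently for each array, so a likeness of arrays with the same replicate number was not simulated. Comparisons at a time share their DMSO arrays, so they are not independent. Labels call the EMD arrays biological replicates, and per the methods the cells of every animal received each treatment, but no source used here ties a replicate number to an animal or gives the number of animals.

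The text names all 8 genes, up to 4 called genes with the largest change for each role of the pathway list together with isoenzymes of the members, and the genes of most like profile. Isoenzymes that were not called fall outside the rule for called genes and were named after their values were seen. The members and lists were chosen with earlier results of these data known. Alternatives were array medians made equal, cyclic loess, a filter on dim probe sets, other probe sets, trended robust moderation, array weights, a replicate block, only the arrays compared, and leaving out each array. The gene table of GRCr8 was used for names, which matched 20758 of the probe sets with 1 symbol.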

Additional observations from a re-analysis of the deposited data

Results flagged for a closer look

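Responses that differed between 24 and 72 h by the interaction test were found for Gpam at 30 µM, with a difference of 0.986 (0.559 at 24 h and 1.55 at 72 h), for Gpam at 100 µM, with 1.02 (0.621 and 1.64), and for Agpat3 at 100 µM, with 0.929 (0.515 and 1.44), all on the log2 scale. Over all alternatives the adjusted p ran from 0.0038 to 0.096, from 0.0035 to 0.11 and from 0.0019 to 0.87. Through the other Agpat3 probe sets that rose with EMD, 1372276_at and 1382227_at, the interaction was 0.09 and 0.42 (adjusted p = 0.93 and 0.25). The mean of all Agpat3 probe sets gave 0.27 (adjusted p = 0.22) and the dimmest 0.13 (adjusted p = 0.87).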

How the results depend on the processing

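With 3 arrays a group the number of arrays limits every count. Leaving out 1 array at a time gave 5 to 6 called members for 30 µM and 4 to 6 for 100 µM at 24 h, 6 to 6 and 6 to 7 at 72 h, 0 to 0 and 0 to 3 between the doses at 24 and 72 h, 1 to 2 in vehicle over time, and 0 to 2 and 0 to 2 in the interactions at 30 and 100 µM, against 6, 6, 6, 6, 0, 2, 1, 1 and 2 with all arrays.

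Through the lowest-mean other probe set, 3 members were called for 30 µM at 24 h, 4 for 100 µM at 24 h and 4 for each dose at 72 h. The same setting gave 1 between the doses at 72 h and 0 in the interaction at 100 µM. The mean of all probe sets gave 1 between the doses at 72 h, 2 in vehicle over time, and 2 and 1 in the interactions at 30 and 100 µM. Between the doses at 72 h, equal array medians gave 1. Array weights gave 4 there, 2 in vehicle over time and 2 in the interaction at 30 µM. Cyclic loess gave 2 and 2 in the last named comparisons, and the filter 2 in the interaction at 30 µM. A fit of only the arrays compared gave 0 between the doses at 72 h and 0 in both interactions, with fewer degrees of freedom.

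Replicate numbers were checked as a pairing through deviations from group means. Of 18 same-number pairs within a time, 16 correlated over 0.1 (median 0.37, against -0.22 for different numbers). Of 18 arrays, 17 correlated best with an array of their own number. Per the methods the cells of every animal received each treatment, which is a paired design. No source used here says that a replicate number marks an animal, so the reported fit left the pairing out. The replicate block called 7 members at each dose at 24 h, with Lpin1 lower (adjusted p = 0.04 and 0.026, over alternatives 0.04 to 0.42 and 0.026 to 0.37), 2 in vehicle over time, with Gpam lower (0.018, over alternatives 0.0062 to 0.28), and 2 in the interaction at 30 µM, with Agpat2 (0.028, over alternatives 0.028 to 0.15). Over all probe sets it called 3 against 0, 1625 against 963, 924 against 292 and 534 against 215 between the doses at 24 and 72 h and in the interactions at 30 and 100 µM. Array weights gave 9, 3336, 641 and 1090 there and 8192 against 5308 for 100 µM at 72 h. The fit of the arrays compared gave 3305 for the last, 141 between the doses at 72 h, 3997 against 6738 in vehicle over time and 76 in the interaction at 100 µM.

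Of 648 values of members under alternatives other than leaving out an array, 22 changed sign, 4 of them called: through its dimmest probe set (mean 3.35) Agpat3 had -0.16 and -0.10 for 30 and 100 µM at 24 h and -0.016 between the doses at 72 h, and Mgll had -0.0028 for 30 µM at 24 h (mean 4.96). The other 18 were not called in the reported fit. Through the lowest-mean probe set, Gpam had -0.10 and Lpin1 -0.0057 between the doses at 72 h; Agpat3 0.062 between the doses at 24 h and -0.16 in vehicle over time; Lpin2 -0.12, -0.032 and -0.035 for 30 and 100 µM at 24 h and 30 µM at 72 h, 0.092 between the doses at 24 h and 0.0897 in the interaction at 30 µM; Mgll 0.081 between the doses at 72 h, -0.025 in vehicle over time and 0.054 in the interaction at 100 µM. The mean of probe sets gave Gpam -0.0046 and Lpin1 -1e-04 between the doses at 72 h, and Mgll 0.093 in the interaction at 100 µM. Array weights gave Agpat3 -0.017 in vehicle over time and Mgll 0.039 between the doses at 72 h, where cyclic loess gave Lpin1 -0.079.

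Of 528 values with an array left out, 34 changed sign, 0 of them called. Between the doses at 24 h the ranges were -0.013 to 0.13 for Gpam, -0.011 to 0.13 for Agpat2, -0.064 to 0.018 for Lpin1, -0.034 to 0.15 for Dgat1, -0.024 to 0.17 for Dgat2 and -0.13 to 0.44 for Mgll. At 72 h they were -0.056 to 0.075 for Lpin1 and -0.15 to 0.044 for Mgll. In vehicle over time they were -0.0085 to 0.12 for Agpat2, -0.046 to 0.092 for Agpat3 and -0.26 to 0.33 for Mgll. In the interactions they were -0.054 to 0.11 for Dgat2 and -0.068 to 0.52 for Mgll at 30 µM, and -0.12 to 0.061 for Dgat1 and -0.33 to 0.33 for Mgll at 100 µM. Where a call changed, the cause was not tested.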
